A study of Mus musculus with 20 samples.

Results

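The 10 genes described here encode costimulatory and inhibitory cell surface proteins of the immunoglobulin superfamily on T cells. They were chosen by name as receptors that raise or damp T cell activation, and not by their measured values: Cd28, Icos and Cd226 as activating receptors, Pdcd1, Btla, Lag3, Havcr2, Tigit and Cd96 as inhibitory or mostly inhibitory receptors, and Cd200, itself a ligand of an inhibitory receptor. They are 10 of the 49315 genes in the count table, and all 10 were among the 28082 genes with enough counts to be tested. RNA was sequenced from mouse splenic T effector cells sorted as CD4+CD25-, at a stated purity above 99%. The knockout mice carried a floxed Pcbp2 gene and the CD4-Cre driver (Fl-Pcbp2/CD4cre, named CKO), so the gene is lost in the T cell lineage from the thymus onward; their control littermates (Fl-Pcbp2, named CTL) are labelled with the floxed gene and no Cre. The titles mark these libraries KO and WT, and the age of the mice is not given in the labels used here. Pcbp2 encodes a poly(C)-binding protein that acts on RNA. The groups were 3 CKO and 5 CTL libraries of cells stimulated for 6 h by T-activator beads against CD3 and CD28, and 6 CKO and 6 CTL libraries of unstimulated cells (0 h). No library of cells kept for 6 h without beads is among them, so the effects of the beads and of time cannot be told apart. Changes given below as with stimulation are those of 6 h with beads against 0 h. A library is named here by the number in its title, such as 4.24 or 9.20. The labels do not say that libraries of a group came from separate mice, so p-values measure the spread between these libraries, which may be partly technical.

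A T cell receives its antigen signal through the T cell receptor and CD3, and the outcome is set by a second layer of surface receptors. Cd28 binds Cd80 and Cd86 on antigen-presenting cells and gives the classic costimulatory signal, Icos is its relative that supports help to B cells, and Cd226 binds Pvr and Nectin2. Tigit and Cd96 compete with Cd226 for Pvr, which makes these genes a rheostat on shared ligands. Pdcd1 binds Cd274 and Pdcd1lg2 and recruits phosphatases, Btla binds Tnfrsf14, Lag3 resembles Cd4 and binds MHC class II, and Havcr2 is a mucin-domain receptor also found on dendritic cells. Cd200 engages Cd200r1, which restrains myeloid cells. Several of these genes rise with activation, and Pdcd1, Icos and Tigit are also high in T follicular helper and regulatory T cells. The beads used here act through the product of Cd28 itself.

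Counts per library were between 62.4 M and 85.6 M except in the 6 h CTL library 4.24, which had 26.4 M and a TMM factor of 1.37, against 1.02 to 1.10 in the other 6 h libraries; genotype differences of members at 6 h that move by over 1.5 times without it are also given without it. Levels are given as CPM (counts scaled to a common library size with TMM factors), and values after ± are standard deviations (SD) for levels and standard errors (SE) for log2 fold changes. Pcbp2 averaged 8.72 ± 2.24 CPM in CKO and 322 ± 34.5 CPM in CTL at 6 h (n = 3 and 5), and 17.0 ± 3.39 CPM in CKO and 333 ± 46.9 CPM in CTL at 0 h (n = 6 each). Xist, which is transcribed from the inactive X chromosome of females, was high (over 100 CPM) in 8 libraries and low in the other 12. It went against the label M in 2 libraries, the 0 h CKO libraries 4.24 and 5.6, so high and low Xist are used below in place of the label. T cell genes were high throughout (Cd3e averaged 297 CPM in CKO and 303 CPM in CTL at 6 h, and 511 CPM in CKO and 564 CPM in CTL at 0 h). Markers of B, myeloid, dendritic, CD8 and natural killer cells other than Ighm were present at lower levels, with no marker at 0 in any library. Ighm, a B cell marker, was near Cd3e at 0 h (547 CPM in CKO and 507 CPM in CTL). At 6 h Ighm was 134 CPM in CKO and 81.5 CPM in CTL. Fewer cells of a type and less RNA per cell cannot be told apart in such bulk samples.

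Per length of exon, the 10 genes covered a wide range. In CKO at 6 h the order from the highest mean was Tigit (118 ± 0.392 CPM per kb), Pdcd1 (69.3 ± 11.9), Icos (63.8 ± 9.41), Cd28 (48.6 ± 9.04), Btla (35.8 ± 16.3), Cd96 (28.9 ± 6.22), Cd200 (21.6 ± 11.8), Lag3 (8.26 ± 3.10), Cd226 (6.00 ± 1.48) and Havcr2 (1.06 ± 0.441), n = 3. In CTL at 6 h Tigit again had the highest mean (62.5 ± 31.6 CPM per kb, n = 5), but its range overlapped that of Icos, the next in order. In CKO at 0 h Tigit led as well (81.0 ± 48.3 CPM per kb, n = 6), and its range overlapped those of Pdcd1, Btla and Cd28. In CTL at 0 h the order began with Cd28 (60.5 ± 5.19 CPM per kb) and Btla (56.6 ± 5.24), which overlapped, and Tigit was the fourth (39.2 ± 17.0, n = 6). Havcr2 was the lowest in all 4 groups and its range stayed below that of its neighbour in each. Of the 9 neighbouring pairs in each order, those separated beyond their library ranges numbered 4 in the 6 h CKO group, 2 in the 6 h CTL group, 2 in the 0 h CKO group and 1 in the 0 h CTL group.

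**Figure D1:**
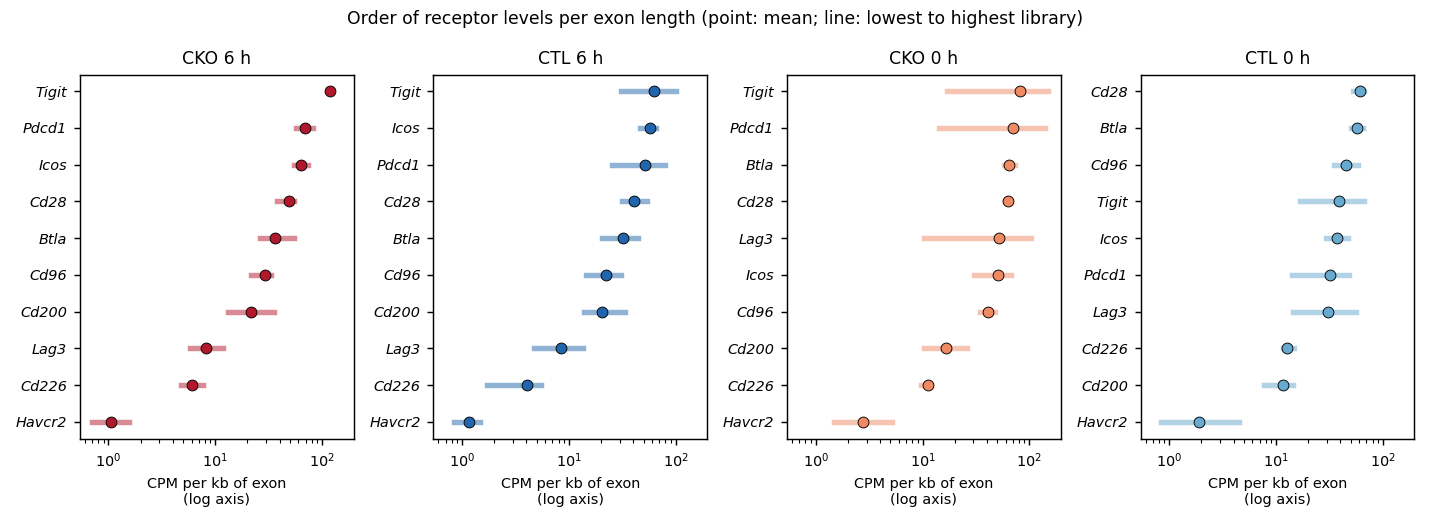
Level per exon length of the 10 genes in each group, ordered by the mean; the horizontal log axis is CPM per kb of exon, points are means and lines run from the lowest to the highest library. Tigit is first in 3 of the 4 orders, Cd28 is first in CTL at 0 h, and Havcr2 is last in all 4.

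In unstimulated cells, none of the 10 genes passed the test between CKO and CTL, while Pdcd1 and Tigit had means about 2-fold higher in CKO with a wide spread. A gene is called here where its edgeR quasi-likelihood p, adjusted by Benjamini and Hochberg over 28082 genes, is under 0.05. With that rule 198 genes (0.705%) were called in this comparison, 0 of the 10 members were called by edgeR or by DESeq2, and 3 members had an unadjusted p under 0.05. The median log2 fold change was 0.49 over the members, -0.08 over all genes tested and 0.02 over those averaging 1 CPM or more, and 8 of the 10 members had a higher mean level in CKO. In no member were the CKO and CTL libraries fully separated, which was so for 1.93% of all genes tested.

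Pdcd1 ranged over 27.8, 124 and 270.1 CPM (lowest, median and highest library) in CKO at 0 h, against 27.1, 61.4 and 93.6 CPM in CTL at 0 h. The CKO range began at the CTL minimum and ran far above the CTL maximum. The log2 fold change was 1.14 ± 0.39 (95% interval 0.33 to 1.95), adjusted p = 0.303 with edgeR, and 5 of 6 CKO libraries lay above the CTL mean. Tigit ranged over 15.6, 63.7 and 138 CPM in CKO at 0 h, against 15.4, 33.8 and 61.5 CPM in CTL at 0 h. Its groups overlapped in the same way, and its log2 fold change was 1.05 ± 0.40, edgeR adjusted p = 0.402, with 5 of 6 CKO libraries above the CTL mean.

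Lag3 ranged over 21.9, 92.5 and 219.9 CPM in CKO at 0 h, against 30.3, 56.9 and 118 CPM in CTL at 0 h. Here the lowest library of all was a CKO library, and the log2 fold change was 0.77 ± 0.41 (edgeR adjusted p = 0.642). Icos ranged over 104, 175 and 229 CPM in CKO at 0 h, against 102, 124 and 161 CPM in CTL at 0 h. The 4 highest values were CKO libraries, and the log2 fold change was 0.46 ± 0.17 (edgeR adjusted p = 0.365). Cd28, the most abundant of the 10 by CPM, was close between genotypes, at 362, 391 and 413 CPM in CKO and 322, 371 and 408 CPM in CTL at 0 h. Its log2 fold change was 0.07 ± 0.12, with a 95% interval of -0.18 to 0.32. The remaining 5 genes had log2 fold changes between -0.17 (Cd226) and 0.54 (Havcr2), each with an edgeR adjusted p of 0.632 or more.

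The genotype difference at 0 h rested on which libraries were compared. Among libraries with low Xist, the CKO to CTL ratio of mean levels at 0 h was 2.23 for Pdcd1, 2.07 for Tigit, 1.69 for Lag3 and 1.56 for Icos (4 CKO and 3 CTL libraries). Among those with high Xist, the ratio was 1.26 for Pdcd1, 1.29 for Tigit, 0.985 for Lag3 and 0.974 for Icos (2 CKO and 3 CTL libraries). In both genotypes the Pdcd1 libraries with high Xist were lower, at 56.4 ± 40.5 CPM against 175 ± 68.9 CPM with low Xist in CKO, and 44.6 ± 15.8 CPM against 78.5 ± 14.3 CPM in CTL. Xist status differed between library numbers, and the part of sex in these levels was not tested. With Xist status as a term in the fit, the log2 fold change of Pdcd1 was 0.86 ± 0.27 and that of Tigit 0.81 ± 0.31, with edgeR adjusted p of 0.221 and 0.396. With the library number as a block, the log2 fold changes were smaller than in the main fit. They were 0.79 ± 0.31 for Pdcd1, 0.74 ± 0.34 for Tigit, 0.43 ± 0.37 for Lag3 and 0.37 ± 0.17 for Icos (edgeR adjusted p of 0.292 or more). Without the CKO library 4.24, Pdcd1 was called (log2 fold change 1.35 ± 0.32, edgeR adjusted p = 0.0488). Without both CKO libraries whose Xist went against the label, Pdcd1 (1.53 ± 0.34, adjusted p = 0.0352) and Icos (0.69 ± 0.16, adjusted p = 0.0385) were called, while Tigit was not (1.42 ± 0.37, adjusted p = 0.0749). Leaving out both was chosen after seeing the data. It removed all high-Xist CKO libraries at 0 h. That left 4 low-Xist CKO libraries against 3 low-Xist and 3 high-Xist CTL libraries, so genotype and Xist status are partly mixed in that fit.

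Same-numbered libraries showed how uneven the difference was. In pair 9.20 Pdcd1 was 270.1 CPM in CKO and 65.1 CPM in CTL (ratio 4.15), and in pair 4.29 it was 183 CPM in CKO and 76.9 CPM in CTL (ratio 2.38). In pair 5.6 it was 85.1 CPM in CKO and 49.2 CPM in CTL (1.73), and in pair 5.13 it was 126 CPM in CKO and 93.6 CPM in CTL (1.34). In pair 4.24 the direction turned, with 27.8 CPM in CKO and 57.6 CPM in CTL (0.483). The same pair was the only exception to a higher CKO level for Tigit (0.442) and Icos (0.752), and it was the lower of 2 exceptions for Lag3 (0.440). Cd200 was the one member higher in CKO in 5 of 5 pairs at 0 h, with ratios between 1.00 in pair 4.24 and 2.01 in pair 4.29, and it was not called (log2 fold change 0.51 ± 0.27, edgeR adjusted p = 0.632).

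**Figure D2:**
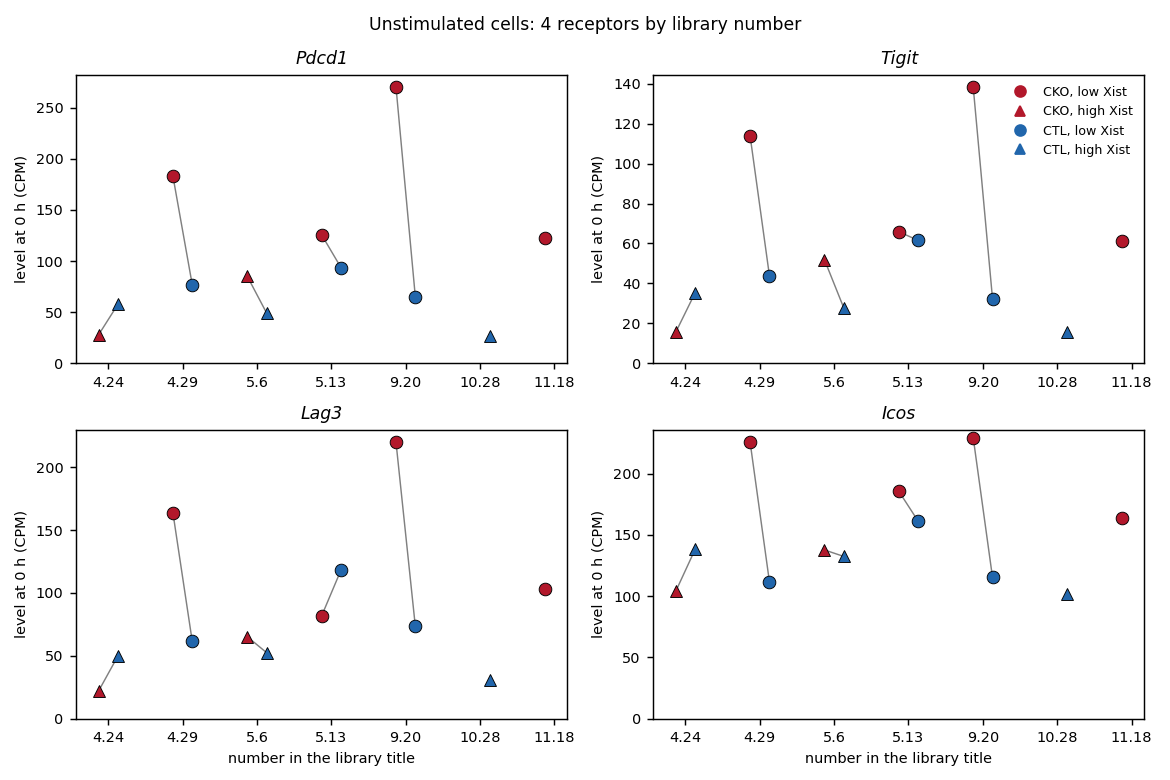
Levels of Pdcd1, Tigit, Lag3 and Icos in unstimulated libraries by the number in the title; the vertical axis is CPM, red symbols are CKO, blue symbols are CTL, triangles have high Xist, and grey lines join libraries with the same number. CKO library 9.20 is the highest in all 4 panels, and CKO library 4.24 lies below the CTL library of the same number in each.

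The spread among the 6 unstimulated CKO libraries set Pdcd1, Tigit and Lag3 apart. Their coefficients of variation were 61.4%, 59.6% and 65.5%, against a median of 12.6% over the 13556 genes that averaged 1 CPM or more in that group, and 97.8%, 97.5% and 98.2% of those genes varied less. Havcr2 was close to them at 53.6%, with 96.65% of genes varying less, and Cd200 was at 35.3%. Cd28 varied by 5.72% over the same libraries, less than all but 8.96% of genes. From high to low, the order of the CKO libraries was 9.20, 4.29, 5.13, 11.18, 5.6 and 4.24 for Pdcd1, and it was the same for Tigit and for Icos. Lag3 differed from it by the exchange of 5.13 and 11.18. Among the 6 unstimulated CTL libraries the coefficients of variation were 37.2% for Pdcd1, 43.4% for Tigit and 46.7% for Lag3, against a median of 11.9%. There Havcr2 varied the most of the members, at 71.4%.

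Markers of 2 T cell subsets that carry these receptors also varied among the unstimulated CKO libraries. T follicular helper cells are B cell helpers that express Cxcr5, Bcl6 and Il21. Their 7 markers summed to between 176 and 711 CPM in CKO and between 181 and 297 CPM in CTL at 0 h, with the CKO libraries in the same order as for Pdcd1. All 7 had a higher mean in CKO at 0 h, and 1 was called, Tox2, a nuclear factor named among the regulators of these receptors (79.0 ± 44.99 CPM in CKO and 28.4 ± 5.29 CPM in CTL, log2 fold change 1.48 ± 0.31, edgeR adjusted p = 0.0254, n = 6 each). The 7 markers of regulatory T cells, which suppress other T cells and were partly gated out by the absence of CD25, summed to between 249 and 686 CPM in CKO and between 188 and 327 CPM in CTL at 0 h. Their order in CKO was 4.29, 9.20, 5.13, 5.6, 11.18 and 4.24, which is not that of Pdcd1. In CTL at 0 h the T follicular helper sum differed from the Pdcd1 order only in the place of 4.24, and the regulatory T cell sum did not follow it. All 7 regulatory T cell markers had a higher mean in CKO, and 1 was called, Gpr83 (30.1 ± 6.89 CPM in CKO and 14.2 ± 2.30 CPM in CTL, log2 fold change 1.085 ± 0.21, edgeR adjusted p = 0.014). Of the 9 markers of memory and effector T cells 3 had a higher mean in CKO and 0 were called by edgeR, with 4 at an unadjusted p under 0.05, and their sum was 756 to 1162 CPM in CKO and 837 to 1477 CPM in CTL at 0 h. No marker of these 3 lists was at 0 in any library. The part of these subsets in the Pdcd1, Tigit, Lag3 and Icos levels was not tested.

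**Figure D3:**
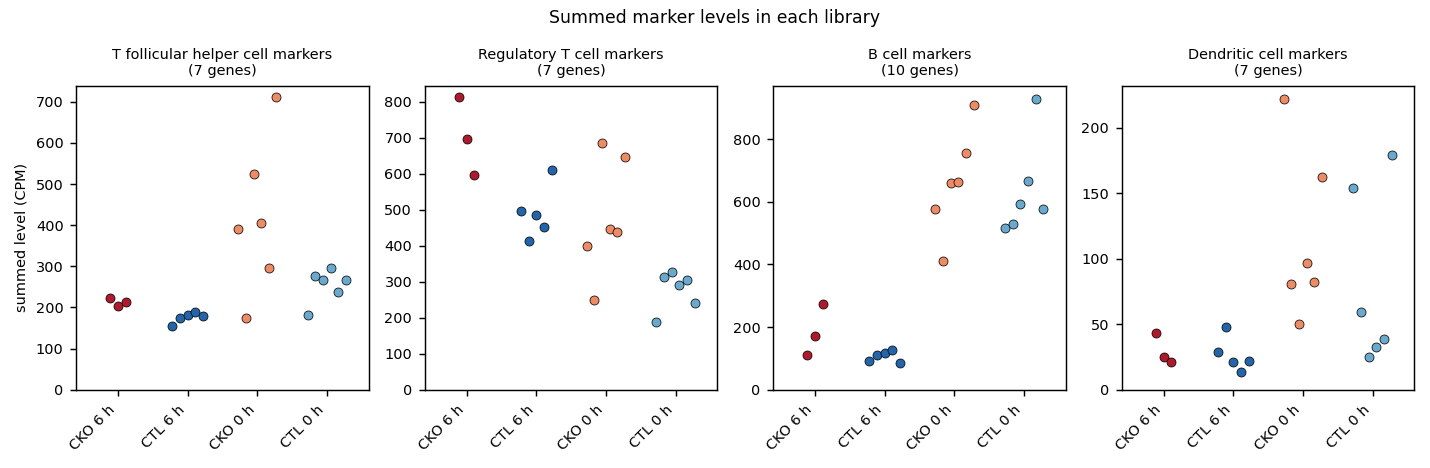
Summed CPM of 4 marker lists in each library by group; each point is a library. The T follicular helper sum reaches 711 CPM in CKO at 0 h against at most 297 CPM in CTL at 0 h. All B cell sums are lower at 6 h than at 0 h in both genotypes, as are the dendritic cell sums in CKO. In CTL the dendritic cell sums overlap, with a median of 21.7 CPM at 6 h and 49.0 CPM at 0 h.

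Pdcd1 and Tigit had the most similar profiles of any pair of members over the 20 libraries, with a root mean square difference of 0.27 between their centred log2(CPM + 0.5) values. The windows from 250 bases before to 50 bases after their RefSeq starts (build GRCm38.p6) are shown because the genes varied together; capitals mark matches on either strand to 6 short motifs of T cell transcription factors. The motifs searched were GGAAA (the core bound by NFAT), TGANTCA (AP-1), TGTGGT (RUNX), CTTTGA (TCF), GTAAACA (FOXO) and AAAGGTCA (the NR4A response element NBRE). RefSeq windows of 6 of the 10 members were searched, and Cd226 was left out of the search.
Pdcd1, chr1:94052504-94052803, minus strand: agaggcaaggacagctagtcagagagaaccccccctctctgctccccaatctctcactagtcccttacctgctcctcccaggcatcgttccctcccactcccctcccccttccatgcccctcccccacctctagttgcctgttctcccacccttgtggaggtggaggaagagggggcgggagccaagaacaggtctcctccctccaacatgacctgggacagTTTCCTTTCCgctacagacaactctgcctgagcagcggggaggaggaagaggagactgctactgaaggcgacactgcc
Tigit, chr16:43664135-43664434, minus strand: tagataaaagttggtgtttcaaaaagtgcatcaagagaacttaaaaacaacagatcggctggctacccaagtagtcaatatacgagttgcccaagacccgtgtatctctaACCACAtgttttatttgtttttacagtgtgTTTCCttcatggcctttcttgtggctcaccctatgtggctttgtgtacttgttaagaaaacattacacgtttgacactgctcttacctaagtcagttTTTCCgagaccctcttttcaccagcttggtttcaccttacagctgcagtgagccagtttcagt
The Pdcd1 window held 2 matches to GGAAA, side by side in reverse orientation, and none to the other 5. The Tigit window held 2 matches to GGAAA and 1 to TGTGGT. Of all 32851 RefSeq windows, 61.3% held GGAAA and 16.8% held TGTGGT, so both were common. The Pdcd1 window was richer in G and C (60.7%) than that of Tigit (41.3%).

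Closest to Pdcd1 over all 20 libraries, among 11593 other protein-coding genes, were Nfil3 (root mean square log2 difference 0.33) and Ptger2 (0.33), and closest to Tigit were Nfil3 (0.30) and Stx11 (0.40). For the other members the nearest were Fbxo25 for Cd28 (0.09), Gas2l1 for Icos (0.16), Dusp6 for Btla (0.19), Angptl2 for Lag3 (0.35), Skap2 for Havcr2 (0.38), Rnf166 for Cd96 (0.23), Chd3 for Cd226 (0.22) and Tnfsf11 for Cd200 (0.28). The libraries share their group and depth, so these distances are a description only.

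After 6 h of stimulation, 0 members were called between CKO and CTL by edgeR or by DESeq2, where edgeR called 71 genes (0.253%, with 0.21% called higher and 0.0427% called lower), and 1 member had an unadjusted p under 0.05. Among genes averaging 1 CPM or more fitted on their own, 79 were called higher and 36 lower. The median log2 fold change was 0.21 over the members, -0.34 over all genes tested and 0.07 over the 14189 genes that averaged 1 CPM or more. Tigit was at 108 CPM in each of the 3 CKO libraries, against 28.5, 31.7, 52.4, 82.0 and 92.8 CPM in the CTL libraries at 6 h. Its coefficient of variation in CKO was 0.333%, and 0.0809% of the 13606 genes averaging 1 CPM or more there varied less. With 3 libraries, this closeness does not show that the level is tightly held in CKO. All CKO values of Tigit lay above all CTL values. Groups that did not overlap, in either direction, were found in 6.69% of all genes tested. The log2 fold change of Tigit was 0.91 ± 0.50 (95% interval -0.12 to 1.95), edgeR adjusted p = 0.317. Among high-Xist libraries the CKO to CTL ratio was 3.59 (1 CKO and 2 CTL libraries), and among low-Xist libraries it was 1.43 (2 CKO and 3 CTL libraries). Summed T follicular helper markers, described above, were also fully separated at 6 h (203 to 223 CPM in CKO and 156 to 190 CPM in CTL), with 6 of 7 higher in the mean in CKO, 0 called by edgeR and 2 at an unadjusted p under 0.05. Summed regulatory T cell markers were 597 to 813 CPM in CKO and 412 to 611 CPM in CTL at 6 h, with 6 of 7 higher in the mean in CKO and 1 called, Gpr83 (13.5 ± 2.76 CPM in CKO and 5.52 ± 2.23 CPM in CTL, edgeR adjusted p = 0.0338). Foxp3, the defining factor of regulatory T cells, averaged 119.9 ± 23.5 CPM in CKO and 49.1 ± 11.5 CPM in CTL at 6 h (adjusted p = 0.0528). The part of these subsets in the Tigit level at 6 h was not tested.

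Cd226, the activating counterpart of Tigit, was 23.1, 27.6 and 37.3 CPM in CKO at 6 h, against 8.46, 17.8, 23.1, 23.5 and 26.8 CPM in CTL at 6 h. The groups overlapped, with 3 of 3 CKO libraries above the CTL mean, and the CTL library 4.24 was the lowest. The log2 fold change was 0.56 ± 0.23 (unadjusted p = 0.0254, edgeR adjusted p = 0.317), and 0.36 ± 0.14 without that CTL library (adjusted p = 0.419). Among high-Xist libraries the CKO to CTL ratio of Cd226 was 1.45 (1 CKO and 2 CTL libraries). That CKO library, 5.6, was at 23.1 CPM, and the CTL libraries were 4.24 at 8.46 CPM and 10.28 at 23.5 CPM. Among low-Xist libraries the ratio was 1.44 (2 CKO and 3 CTL libraries), and in the same-numbered pair 5.13 it was 1.03. Pdcd1 was 111, 134 and 157 CPM in CKO at 6 h, against 48.8, 65.1, 114, 117 and 152 CPM in CTL at 6 h, with a log2 fold change of 0.43 ± 0.48 (edgeR adjusted p = 0.528) and overlapping groups. The 3 CKO libraries at 6 h did not include the numbers 9.20 and 4.29 that were highest at 0 h, or 4.24 that was lowest. The other 7 members had log2 fold changes between -0.12 (Havcr2) and 0.36 (Cd96) at 6 h. Without the CTL library 4.24 the log2 fold change was 0.25 for Pdcd1, 0.16 for Cd28 (0.24 with it), 0.037 for Btla (0.16 with it), 0.0040 for Cd200 (0.094 with it), -0.027 for Havcr2 and -0.067 for Lag3 (-0.034 with it), none of them called by edgeR. B cell markers had a higher mean in CKO at 6 h in 10 of 10 genes, with 0 called by edgeR and 4 at an unadjusted p under 0.05 (sums of 111 to 274 CPM in CKO and 86.9 to 126 CPM in CTL), and their part in the levels of Btla and Cd200, which B cells also express, was not tested.

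**Figure D4:**
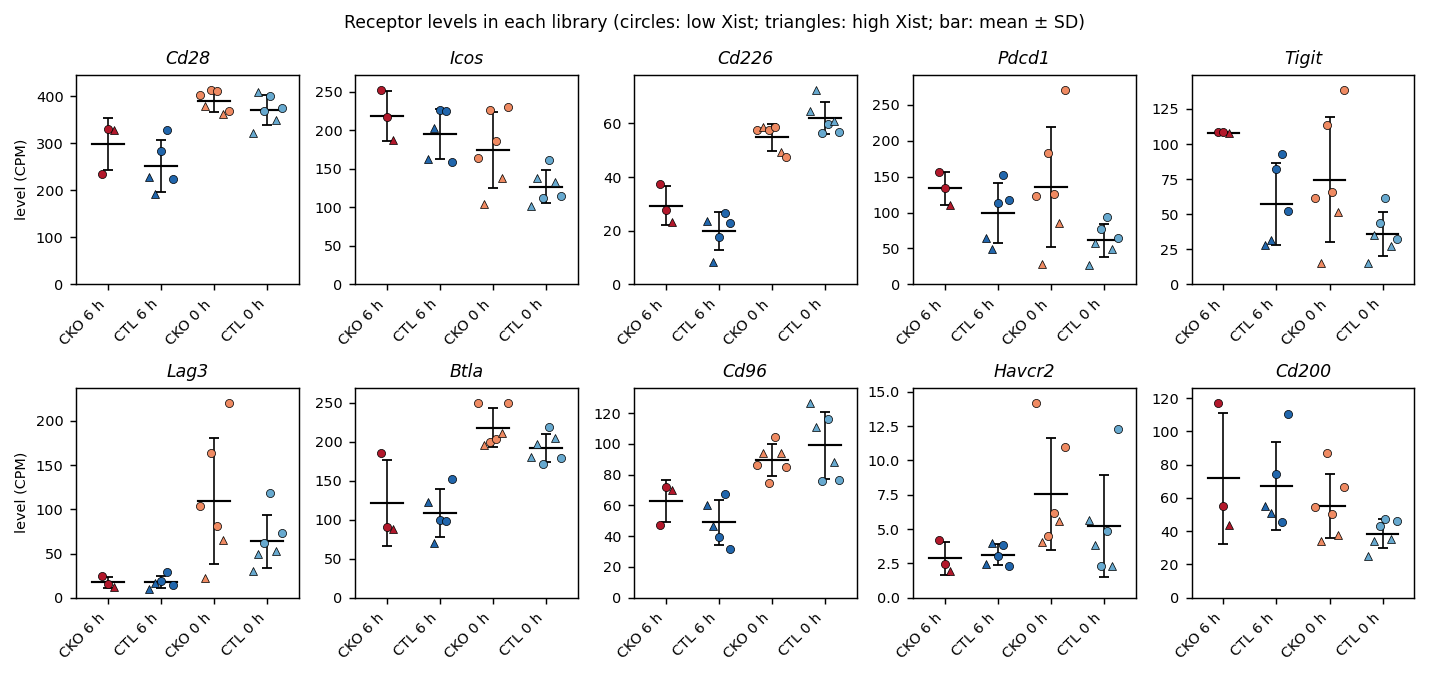
Level of each member in every library by group; the vertical axis is CPM from 0, circles have low Xist and triangles high Xist, and black bars give the mean and SD. Tigit at 6 h is near 108 CPM in all 3 CKO libraries, and Lag3 and Cd226 are lower in the 6 h groups than in the 0 h groups.

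In control cells Icos and Cd200 were higher at 6 h of stimulation than at 0 h, and Lag3, Cd226, Cd96, Btla and Cd28 were lower. These are 7 of the 10 members called between 6 h and 0 h in CTL, where 60.7% of all genes tested were called, so the number called was near the background. Of these, 2 rose (background 40.2%) and 5 fell (background 20.5%), and 4 had groups that did not overlap (background 29.9%). The median log2 fold change was -0.65 over the members, against 0.32 over all genes tested and -0.18 over the 14189 genes that averaged 1 CPM or more, of which 53.7% were called. Fitted on their own, genes passing a 1 CPM filter gave 3915 called higher and 3337 called lower in CTL. The calls and their directions were the same 2 and 5 in number without the CTL library 4.24. All fold changes below are from edgeR with Benjamini-Hochberg adjusted p.

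The genes that rose in CTL were Icos and Cd200. Icos was 159, 162, 203, 225 and 226 CPM in CTL at 6 h, against 102, 124 and 161 CPM (lowest, median and highest) in CTL at 0 h. A single 6 h library lay within the 0 h range, 5 of 5 pairs of the same number were higher at 6 h, and the log2 fold change was 0.62 ± 0.18 (adjusted p = 0.00552). Cd200 was 45.5, 50.7, 55.2, 74.5 and 111 CPM in CTL at 6 h, against 25.4, 39.1 and 47.5 CPM in CTL at 0 h. The groups overlapped at their edges. Cd200 was higher at 6 h in 4 of 5 pairs, and the log2 fold change was 0.80 ± 0.28 (adjusted p = 0.0183). This call rested on 2 libraries, with adjusted p of 0.0859 without the 6 h library 9.20 and 0.0609 without the 0 h library 5.6.

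Lag3 and Cd226 fell the most in CTL. Lag3 was 9.88, 14.8, 16.3, 19.3 and 28.8 CPM in CTL at 6 h, against 30.3, 56.9 and 118 CPM in CTL at 0 h. All 6 h values lay below all 0 h values, and Lag3 fell by 1.85 ± 0.45 on the log2 scale (adjusted p = 0.00179). Cd226 was 8.46, 17.8, 23.1, 23.5 and 26.8 CPM in CTL at 6 h, against 56.4, 60.3 and 72.4 CPM in CTL at 0 h. Again no value overlapped, and Cd226 fell by 1.63 ± 0.20 (adjusted p = 3.35e-06). Without the 6 h library 4.24, its lowest value, the log2 fold change was -1.43 (adjusted p = 4.6e-08).

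Cd96, the third receptor for Pvr, was 31.4, 39.3, 46.6, 60.4 and 67.4 CPM in CTL at 6 h, against 76.0, 99.7 and 126 CPM in CTL at 0 h. It fell by 1.01 ± 0.18 on the log2 scale (adjusted p = 0.000205), with no overlap. Btla, which was 69.9, 98.4, 100.0, 123 and 152 CPM in CTL at 6 h and 172, 189 and 219 CPM in CTL at 0 h, fell by 0.82 ± 0.19 (adjusted p = 0.00112), also without overlap. Cd28 was 191, 224, 228, 284 and 328 CPM in CTL at 6 h, against 322, 371 and 408 CPM in CTL at 0 h. It fell by 0.56 ± 0.13 (adjusted p = 0.00105), and the groups met at their edges.

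The inhibitory receptors Pdcd1, Tigit and Havcr2 did not pass the test in CTL. The log2 fold change of Pdcd1 was 0.69 ± 0.40 (adjusted p = 0.144) and that of Tigit 0.68 ± 0.42 (adjusted p = 0.169), each higher at 6 h in 4 of 5 pairs. The exception was pair 4.24, where Pdcd1 was 48.8 CPM at 6 h and 57.6 CPM at 0 h, and Tigit was 31.7 CPM at 6 h and 35.3 CPM at 0 h. Restricted to genes averaging 1 CPM or more, and with the library number as a block, both were called (Pdcd1 0.83 ± 0.30, adjusted p = 0.0329, and Tigit 0.81 ± 0.32, adjusted p = 0.0488), a choice made after seeing the data. Havcr2 had a log2 fold change of -0.74 ± 0.41 (adjusted p = 0.125). It was -0.36 without the 0 h library 9.20, the highest for Havcr2 (adjusted p = 0.395), and it was called without the 0 h library 5.6 (-0.98, adjusted p = 0.0412).

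In CKO cells 5 members were called between 6 h and 0 h, all lower, where 36% of all genes tested were called, 22.3% higher and 13.7% lower, and 34.6% of those averaging 1 CPM or more. The groups did not overlap in 4 members, against 47% of all genes, and the median log2 fold change was -0.45 over the members, 0.15 over all genes tested and -0.14 over those averaging 1 CPM or more. Fitted on their own, 14146 genes passing a 1 CPM filter gave 2340 called higher and 2459 called lower in CKO. Lag3 was 12.3, 15.2 and 24.8 CPM in CKO at 6 h, against 21.9, 92.5 and 219.9 CPM in CKO at 0 h. The lowest 0 h library, 4.24, lay within the 6 h range, and Lag3 fell by 2.65 ± 0.57 on the log2 scale (adjusted p = 0.00199). Cd226 was 23.1, 27.6 and 37.3 CPM in CKO at 6 h, against 47.6, 57.5 and 58.8 CPM in CKO at 0 h. It fell by 0.90 ± 0.23 (adjusted p = 0.00672) with no overlap. Btla was 88.3, 91.4 and 185 CPM in CKO at 6 h, against 196, 207 and 249 CPM in CKO at 0 h. It fell by 0.84 ± 0.22 (adjusted p = 0.00765), and its adjusted p was 0.051 without the 6 h library 5.13 and 0.0604 without 5.6.

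Havcr2 was 1.92, 2.49 and 4.22 CPM in CKO at 6 h, against 4.05, 5.90 and 14.2 CPM in CKO at 0 h. It fell by 1.40 ± 0.50 (adjusted p = 0.036), and this call was lost without the 0 h library 11.18 (adjusted p = 0.0807) or without the 6 h library 5.13 (0.107) or 5.6 (0.149). Cd28 was 234, 329 and 330.4 CPM in CKO at 6 h, against 362, 391 and 413 CPM in CKO at 0 h. Its fall of 0.39 ± 0.15 (adjusted p = 0.0472) was lost without any of 12 single libraries, with an adjusted p of up to 0.27. Cd96 was 47.5, 69.9 and 72.0 CPM in CKO at 6 h, against 74.6, 90.0 and 105 CPM in CKO at 0 h. It did not overlap, and its log2 fold change of -0.51 ± 0.22 had an adjusted p of 0.0725, and of 0.00101 with the library number as a block. Icos (0.33 ± 0.20, adjusted p = 0.221), Tigit (0.54 ± 0.48, adjusted p = 0.398) and Pdcd1 (-0.02 ± 0.47, adjusted p = 0.977) were not called, although each was higher at 6 h in all 3 pairs of the same number. For Pdcd1 the 3 pairs gave ratios of 6 h to 0 h of 1.07, 1.30 and 1.28, and the group mean at 0 h also held libraries 9.20 and 4.29, the highest, and 4.24, the lowest, which have no 6 h partner.

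**Figure D5:**
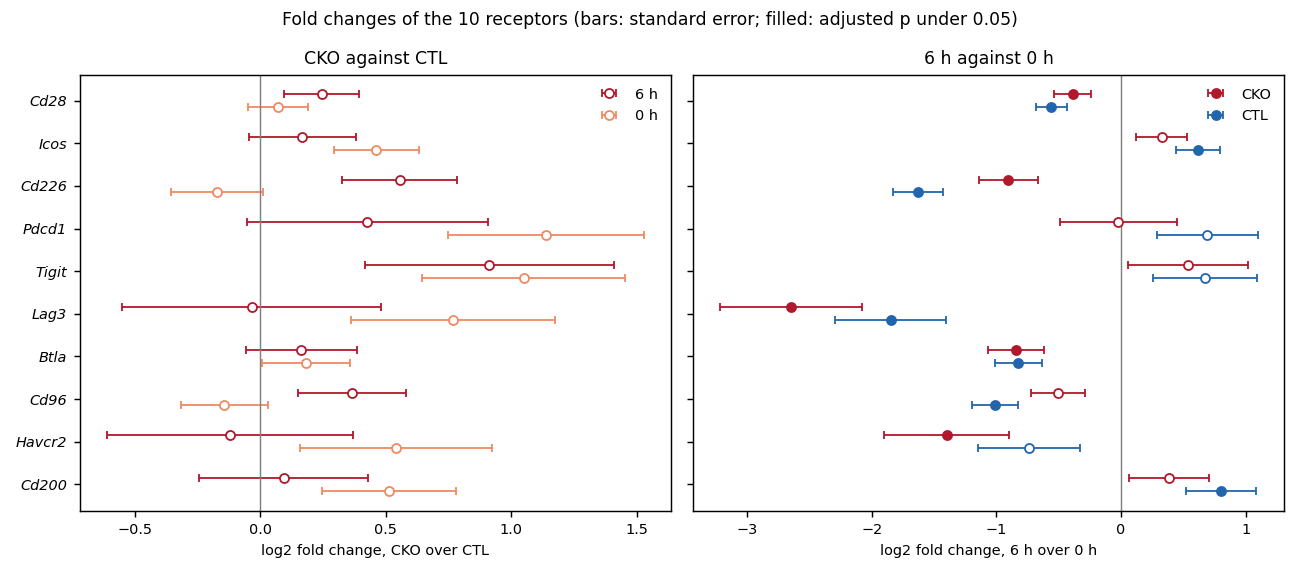
Log2 fold changes of the 10 members, CKO over CTL at 6 h and 0 h (left) and 6 h over 0 h in CKO and CTL (right); points are estimates, bars are standard errors, and filled points have an adjusted p under 0.05. No point is filled on the left, and on the right 7 are filled for CTL and 5 for CKO.

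The difference between the responses, CKO minus CTL, was called in 0 members and in 0 of all genes (0%) by edgeR, with 901 genes at an unadjusted p under 0.05, and in 0 genes by DESeq2. The member with the smallest unadjusted p was Cd226 (difference 0.73 ± 0.29 on the log2 scale, 95% interval 0.11 to 1.34, edgeR adjusted p = 0.868). The next was Cd96 (0.51 ± 0.28, adjusted p = 0.868). For the other 8 members the differences lay between -0.80 (Lag3) and 0.17 (Cd28), with intervals that held 0.

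The ratio of Tigit to Cd226, which share their ligands, is given as a description with no test. Per length of exon, Tigit exceeded Cd226 by 15.4-, 20.9- and 24.8-fold in CKO at 6 h and by 6.44-, 12.1-, 18.4-, 19.96- and 24.5-fold in CTL at 6 h. The ratio was 1.41, 5.83 and 15.5 (lowest, median and highest) in CKO at 0 h and 1.27, 2.81 and 5.48 in CTL at 0 h. In CTL all 6 h values lay above all 0 h values. In CKO the 0 h library 9.20 reached the lower edge of the 6 h range.

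Marker levels of other cell types also differed between 6 h and 0 h. The 10 B cell markers were all called lower in CTL (sums of 86.9 to 126 CPM at 6 h and 515 to 928 CPM at 0 h), and 2 were called lower in CKO (111 to 274 CPM at 6 h and 410 to 909 CPM at 0 h). Of 7 dendritic cell markers, 4 were called lower and 1 higher in both genotypes, with sums of 21.2 to 43.5 CPM at 6 h and 49.8 to 222 CPM at 0 h in CKO, and 13.7 to 48.1 CPM at 6 h and 25.4 to 179 CPM at 0 h in CTL. The unstimulated libraries with the most Havcr2, 11.18 in CKO (14.2 CPM) and 9.20 in CTL (12.3 CPM), also had the highest dendritic marker sums of their groups. Of 8 CD8 and natural killer cell markers, 3 were called lower in CKO and 5 in CTL, and of 10 myeloid markers 6 were called lower in each. Of 7 T cell identity genes, 6 were called lower in each genotype. The part of these cells in the falls of Btla, Lag3, Havcr2, Cd96 and Cd226 was not tested.

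Among 16 ligands and counter-receptors, Cd80, the ligand of Cd28, was called higher in CKO at both times. It averaged 3.54 ± 0.321 CPM in CKO and 1.33 ± 0.319 CPM in CTL at 6 h (log2 fold change 1.42 ± 0.29, edgeR adjusted p = 0.0394), and 5.02 ± 1.96 CPM in CKO and 2.33 ± 0.344 CPM in CTL at 0 h (1.11 ± 0.23, adjusted p = 0.0265). Pvr, the shared ligand of Cd226, Tigit and Cd96, averaged 53.4 ± 1.09 CPM in CKO and 35.8 ± 3.10 CPM in CTL at 6 h (0.58 ± 0.09, adjusted p = 0.00684), and no other gene of the list was called between genotypes. With stimulation 3 of the 16 rose and 8 fell in CKO, and 4 rose and 7 fell in CTL (median log2 fold changes of -0.55 and -0.34). Cd274, the ligand of Pdcd1, was 402 ± 66.97 CPM in CKO at 6 h and 77.2 ± 14.3 CPM in CKO at 0 h, and 430 ± 87.0 CPM in CTL at 6 h and 76.4 ± 3.38 CPM in CTL at 0 h, a log2 fold change of 2.38 ± 0.16 in CKO and 2.49 ± 0.14 in CTL. Pvr fell by 0.60 ± 0.09 in CKO (adjusted p = 9.29e-05) and by 0.90 ± 0.08 in CTL (adjusted p = 4.3e-08). Cd200r1, the receptor for Cd200, fell by 1.29 ± 0.13 in CKO and by 1.67 ± 0.11 in CTL on the log2 scale. The largest edgeR adjusted p of the Cd274 and Cd200r1 changes was 5.94e-07.

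Of 17 other T cell surface genes, 1 was called between genotypes, Cd160, a receptor for Tnfrsf14 like Btla. Most of this list are immunoglobulin family receptors, but Cd5, Cd6 and Lax1 are not. Cd160 was lower in CKO at 0 h (3.67 ± 1.14 CPM in CKO and 8.12 ± 2.36 CPM in CTL, log2 fold change -1.15 ± 0.26, edgeR adjusted p = 0.0456). With stimulation 1 rose and 11 fell in CKO, and 2 rose and 12 fell in CTL. Cd48, a ligand and receptor of the SLAM family, fell by 0.94 ± 0.09 in CKO (adjusted p = 6.21e-07) and by 1.06 ± 0.08 in CTL (adjusted p = 4.52e-09). Cd84, of the same family, fell by 1.10 ± 0.14 in CKO (adjusted p = 1.01e-05) and by 1.19 ± 0.12 in CTL (adjusted p = 1.86e-07). Slamf1, a further member of it, rose by 1.62 ± 0.21 in CTL (adjusted p = 6.69e-06; this gene was chosen after its values were seen). Cd5, a brake on T cell receptor signals and the most abundant of the list, was 376 ± 24.8 CPM in CKO and 310.0 ± 63.4 CPM in CTL at 6 h (adjusted p = 0.317). The median log2 fold change of this list was -0.72 in CKO and -0.77 in CTL, beside 0.15 in CKO and 0.32 in CTL over all genes tested and -0.14 in CKO and -0.18 in CTL over those averaging 1 CPM or more.

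Among 23 signalling partners none was called between genotypes by edgeR, with 6 at 6 h and 0 at 0 h at an unadjusted p under 0.05. The most abundant was Pik3cd, the kinase subunit downstream of Cd28 and Icos, at 862 ± 68.0 CPM in CKO and 590 ± 213 CPM in CTL at 6 h (log2 fold change 0.55 ± 0.23, adjusted p = 0.317). At 0 h it was 1092 ± 62.1 CPM in CKO and 1017 ± 122 CPM in CTL (adjusted p = 0.906). With stimulation 2 rose and 15 fell in CKO, and 1 rose and 18 fell in CTL (median log2 fold changes of -0.49 and -0.79). Cblb, a ubiquitin ligase that restrains Cd28 signalling, rose by 1.69 ± 0.14 in CKO and 1.27 ± 0.12 in CTL on the log2 scale. Ptpn6, the phosphatase that inhibitory receptors recruit, fell by 1.70 ± 0.16 in CKO and by 1.68 ± 0.13 in CTL. Lck, the kinase that starts T cell receptor signalling, fell by 1.44 ± 0.13 in CKO and by 1.57 ± 0.11 in CTL. The largest edgeR adjusted p of these 6 changes was 2.58e-07.

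Of 19 regulators of these receptors, Tox2 was the only gene called between genotypes, at 0 h as given above. At 6 h the most abundant, Tcf7, a factor of naive T cells, was 1237 ± 299 CPM in CKO and 970.2 ± 225 CPM in CTL (adjusted p = 0.317). With stimulation 5 of the list rose and 6 fell in CKO, and 5 rose and 7 fell in CTL (median log2 fold changes of -0.08 and -0.12). Nr4a3, an orphan nuclear receptor induced by T cell receptor signals, averaged 525 ± 166 CPM in CKO at 6 h and 33.2 ± 7.16 CPM in CKO at 0 h (log2 fold change 3.98 ± 0.23), and 551 ± 169 CPM in CTL at 6 h and 29.1 ± 4.41 CPM in CTL at 0 h (4.24 ± 0.22). Irf4, a factor of activated T cells, rose by 3.44 ± 0.34 in CKO and by 4.17 ± 0.33 in CTL. The largest edgeR adjusted p of these 4 changes was 4.5e-07.

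Tigit, Btla, Cd200 and Cd96 lie on mouse chromosome 16 in GRCm38. Tigit is at 43648867 to 43664146 on the minus strand, Btla at 45224315 to 45257670 on the plus strand, Cd200 at 45382135 to 45409053 and Cd96 at 46035657 to 46120251, both on the minus strand. Btla and Cd200 are neighbours, 124 kb apart with no protein-coding gene between them, and in CTL Btla fell and Cd200 rose with stimulation. Cd28, Icos and Pdcd1 are on chromosome 1, Lag3 is 16.1 kb from Cd4 on chromosome 6, and Havcr2 is on chromosome 11. No exon of a member overlapped an exon of another gene in GENCODE M21. The RefSeq start windows of Cd96 and Cd200 are shown because these genes moved in opposite directions in CTL, with capitals as above.
Cd96, chr16:46120199-46120498, minus strand: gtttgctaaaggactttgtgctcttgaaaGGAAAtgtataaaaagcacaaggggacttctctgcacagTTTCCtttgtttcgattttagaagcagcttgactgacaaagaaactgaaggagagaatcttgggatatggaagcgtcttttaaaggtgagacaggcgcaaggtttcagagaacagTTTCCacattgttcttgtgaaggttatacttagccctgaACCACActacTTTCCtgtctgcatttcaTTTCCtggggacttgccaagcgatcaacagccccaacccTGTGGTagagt
Cd200, chr16:45409004-45409303, minus strand: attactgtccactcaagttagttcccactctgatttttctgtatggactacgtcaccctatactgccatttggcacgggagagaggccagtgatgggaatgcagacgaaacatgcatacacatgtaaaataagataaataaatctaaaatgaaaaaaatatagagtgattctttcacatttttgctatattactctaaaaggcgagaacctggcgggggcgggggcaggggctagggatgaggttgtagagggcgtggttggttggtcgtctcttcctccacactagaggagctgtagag
The Cd96 window held 5 matches to GGAAA and 2 to TGTGGT, and the Cd200 window held none of the 6 motifs. The window of Btla, which also fell in CTL, held 0 matches to GGAAA and 1 to TGTGGT. That of Havcr2 held 0 to GGAAA, 1 to TGTGGT and 1 to TGANTCA. No match says only that these letters are not in the window searched. A link between these motifs and the direction of change was not tested.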

How the data were processed

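Per the labels' protocols, 100 ng of total RNA per library (integrity numbers 5.0 to 8.7, median 7.4) went into stranded mRNA preparation and paired-end sequencing with reads of 150 bases. The authors deposited raw counts per Ensembl gene as whole numbers. GRCm38 is the build named in the submitters' processing notes, which also list STAR 2.5.2b, Trimmomatic 0.36, Subread 1.5.2 and featureCounts. Neither the annotation release nor the strand setting is given there. Of 49315 gene IDs, 49056 matched GENCODE M21 and 259 did not, and 0 columns belonged to other samples.

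The 28082 genes kept by filterByExpr (minimum count 10, minimum total 15) were fitted with edgeR 4.0.16 in R 4.3.3 (TMM, robust quasi-likelihood, 4 groups, all 20 libraries), and p-values were adjusted by Benjamini and Hochberg over all of them. No sex term was used because the CKO number 5.6 is labelled M at 0 h and F at 6 h. DESeq2 1.42.0 and other settings were alternatives. The fit was tested on simulated counts. CPM per kb divides by merged exon length. Within groups no library copied another (chi-square per degree of freedom of 18.7 to 271 over 43 pairs), and pairs across groups were not checked. Intervals rest on the spread between libraries.

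Whether library numbers pair samples was checked by the correlation of deviations from group means. Same-numbered libraries correlated at 0.236 to 0.703 between CKO and CTL at 0 h (5 pairs) and at 0.248 to 0.528 between 6 h and 0 h in CTL (5 pairs), so numbers pair these groups. They correlated at 0.0935 to 0.506 between 6 h and 0 h in CKO (3 pairs), which leaves that pairing unsettled, and CKO and CTL at 6 h share 1 number.

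The members, the gene lists and the tests were chosen with earlier results of these data known. All members are named, and from each list up to 3 called genes with the smallest adjusted p, or the most abundant gene where none was called. Promoter windows are from RefSeq (GRCm38.p6).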

Additional observations from a re-analysis of the deposited data

Results flagged for a closer look

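Among 30 sets of 4 to 10 libraries checked (a member within a group), 1 held a library far from the rest, and chance gives about 1 in 20 such sets. Havcr2 in CTL at 0 h was 12.3 CPM in library 9.20, where the next highest library had 5.63 CPM. That library also had the highest summed level of dendritic cell markers in its group (179 CPM, against a group median of 49.0 CPM), and the part of dendritic cells in the value was not tested.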

How the results depend on the processing

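The count of members called at 0 h between CKO and CTL was 0, and it was 0 to 1 when each library was left out. It was 2 without the CKO libraries 4.24 and 5.6, the only high-Xist CKO libraries at 0 h. For 6 h against 0 h in CKO the count was 5, and it was 3 where only genes averaging 1 CPM or more were tested and 2 to 6 when each library was left out, with 2 without the 6 h library 5.13 or 5.6 and 3 without the 0 h library 11.18. In CTL it was 7, and 6 to 9 over all alternatives. For CKO against CTL at 6 h and for the difference of responses it was 0 throughout. With the replicate block the members called were 0 for CKO against CTL at 0 h and 7 for 6 h against 0 h in CTL, as without it, and 6 for 6 h against 0 h in CKO, where Cd96 was added.

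Directions reversed in members that were not called. For CKO against CTL at 6 h, Btla was -0.070 with the replicate block and -0.17 with the block and a 1 CPM filter, and -0.27 to 0.35 with a library left out. Icos was -0.012 with block and filter. Lag3 was 0.039 with only the groups compared, 0.0113 without the 0 h CKO libraries 4.24 and 5.6, and -0.37 to 0.21 with a library left out, with 0.0117, 0.0117, 0.0113, 0.0117, 0.060, 0.17 and 0.21 in the 7 fits of changed sign. Havcr2 was -0.50 to 0.11 with a library left out. Cd200 was -0.010 with the 1 CPM filter, -0.085 with block and filter, and -0.44 to 0.36 with a library left out (-0.019 without the 6 h CTL library 5.13). For 6 h against 0 h in CKO, Pdcd1 was 0.047 with RLE, 0.048 with DESeq2, 0.13 with the 1 CPM filter, 0.27 with the sex label, 0.16 with the replicate block, 0.15 with Xist status, 0.31 with block and filter, and -0.23 to 0.23 with a library left out (0.036 and 0.092 among them). Cd200 was -0.16 to 0.64 with a library left out. For the difference of responses, Btla was 0.0012 with no filter, 0.066 with the sex label and -0.45 to 0.17 with a library left out (6.57e-05, 0.012, 0.024, 0.029, 0.033, 0.13 and 0.16 among them). Tigit was 0.33 with the sex label, 0.15 with the replicate block, 0.25 with Xist status, 0.068 with block and filter, and -0.36 to 0.13 with a library left out (0.020, 0.025, 0.043 and 0.10 among them). The cause was not tested.

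Over all genes, calls between CKO and CTL at 0 h numbered 198, with 573 by DESeq2, 621 with only the groups compared, 119 with the sex label, 302 without the 2 CKO libraries, and 79 to 584 with a library left out (584 without the 6 h CTL library 4.24). At 6 h they numbered 71, with 393 by DESeq2, 115 with the 1 CPM filter, 46 with the replicate block, 37 with both, 8 with only the groups compared, and 14 to 214 with a library left out. For 6 h against 0 h they numbered 17033 in CTL, with 7252 under the 1 CPM filter and 7143 with the block too, and 10107 in CKO, with 4799 under that filter, 4580 with the block too and 6600 without the 6 h library 5.6. Cd28 in CKO at 6 h lost its call in 12 of 20 fits with a library left out and in 7 of 10 others. The 3 CKO libraries at 6 h limit what these comparisons can show.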
